A study of Mus musculus with 7 samples.

Results

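The cells described here were the early arch crest of the control library at E8.5: cells that carried messenger RNA of both Twist1 and Dlx2 but little of Sox10 and none detected of Alx1. They were chosen by their own counts of unique molecular identifiers (UMIs, each 1 captured transcript molecule). A cell was a member with at least 1 UMI of Twist1, at least 1 of Dlx2, fewer than 2 of Sox10 and 0 of Alx1, after cells with under 1000 genes detected or more than 10% mitochondrial UMIs had been set aside. This left 202 cells of the 5874 kept cells of the library (3.44%, exact 95% binomial interval 2.99 to 3.94), and the 7 libraries of the series held 58432 kept cells in all. Because UMIs of these cells chose them, the contrasts with other cells below are descriptions and carry no test.

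The study profiled sorted neural crest lineage cells of mouse embryos by droplet single-cell RNA sequencing. Control embryos carried Wnt1-Cre and the ROSA-EGFP reporter as single copies, and the E8.5 library came from the anterior part of pooled embryos on a mixed Swiss-Webster background, whose living EGFP-positive cells were sorted. The Wnt1-Cre transgene acts in the dorsal neural tube as well as in the neural crest, so the sort also held neural tube cells. The other libraries were 1 control of stage E9.5, 2 controls of stage E10.5 and 3 libraries named Tbx1 null (1 of E9.5 and 2 of E10.5 age), whose titles say null while their genotype field reads Tbx1+/-, and which the study's own list of experiments gives as Tbx1-/-. The E8.5 sample has 1 library, made with kit version 2, so no value below has a replicate, and all intervals cover counting error only.

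Neural crest cells leave the dorsal neural tube, pass through a migratory state marked by Sox10 and Foxd3, and enter the pharyngeal arches, where cranial cells become the ectomesenchyme that builds facial skeleton and connective tissue. Twist1, a basic helix-loop-helix factor, and the Dlx homeobox factors are part of the change from migratory crest to arch mesenchyme. Dlx1 and Dlx2 are known along the whole arch, while Dlx5 and Dlx6 belong to its more ventral part and depend on endothelin signalling. Alx1 belongs to the frontonasal and periocular crest, and crest of the first arch lacks Hox gene activity while that of the second arch carries Hoxa2 and Hoxb2.

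The files held 5987 barcodes for the E8.5 library with 140264662 UMIs and a median of 22980 UMIs each, and the other 6 libraries had 7922 to 12047 barcodes with medians of 13882 to 22449 UMIs. The E8.5 library shared 0 to 2 barcodes with any other library. The 202 members had a median of 24474 UMIs and 4136 genes, against 23100 UMIs over all kept cells, and together 4970134 UMIs. Doublet scoring with Scrublet marked 287 of the 5987 barcodes, 11 of them members.

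The genes of the rule and the markers given for these cells lie at the following places of mm10. Twist1 spans chr12:33957671-33959829 on the plus strand and Dlx2 chr2:71543408-71546754 on the minus strand. Prrx2, a paired-type homeobox factor of mesenchyme, spans chr2:30834972-30881251 on the plus strand. Snai1, a zinc finger repressor that promotes the epithelial to mesenchymal transition, spans chr2:167538195-167542814 on the plus strand. All are protein-coding, and a UMI was credited to a gene as a whole. The rule required Twist1 and Dlx2 in the same cells, so their presence together is no finding. The 250 bases before the annotated start of each gene are shown because Twist1 and Snai1 both encode proteins that bind the E-box CANNTG. They were taken from RefSeq (GRCm38.p6), are written 5′ to 3′ on the strand of the gene, and have every E-box match in capitals.
Twist1, chr12:33957421-33957670: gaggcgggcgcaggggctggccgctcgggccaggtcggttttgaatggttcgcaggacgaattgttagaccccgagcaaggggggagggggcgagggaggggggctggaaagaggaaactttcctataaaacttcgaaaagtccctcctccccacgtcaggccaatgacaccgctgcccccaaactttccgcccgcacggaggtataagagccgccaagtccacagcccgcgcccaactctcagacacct
Dlx2, chr2:71546755-71547004, minus strand: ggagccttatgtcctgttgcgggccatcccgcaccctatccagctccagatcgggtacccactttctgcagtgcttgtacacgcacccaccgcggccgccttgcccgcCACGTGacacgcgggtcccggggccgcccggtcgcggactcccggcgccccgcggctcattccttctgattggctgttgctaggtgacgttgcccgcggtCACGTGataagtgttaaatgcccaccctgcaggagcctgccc
Prrx2, chr2:30845117-30845366: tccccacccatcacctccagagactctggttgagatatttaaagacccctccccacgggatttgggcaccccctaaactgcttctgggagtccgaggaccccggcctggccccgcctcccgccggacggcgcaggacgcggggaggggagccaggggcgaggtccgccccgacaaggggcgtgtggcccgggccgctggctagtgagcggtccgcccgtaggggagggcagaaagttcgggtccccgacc
Snai1, chr2:167537945-167538194: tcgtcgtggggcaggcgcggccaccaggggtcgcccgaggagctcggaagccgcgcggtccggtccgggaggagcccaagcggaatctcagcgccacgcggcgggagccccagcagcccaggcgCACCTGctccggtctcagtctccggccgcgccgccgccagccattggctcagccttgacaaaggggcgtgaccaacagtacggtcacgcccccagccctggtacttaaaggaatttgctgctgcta
The motif was searched as the letters CANNTG, which read the same on both strands. The windows of Twist1 and Prrx2 held 0 matches, that of Dlx2 held 2, both CACGTG, and that of Snai1 held CACCTG at 1 place. Of the 32851 windows of the same length, 66.2% held CANNTG, and 17.2% held CACCTG or, on the other strand, the letters CAGGTG. These matches are letters only, and the Prrx2 window lies inside the longest annotated span of its gene.

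Twist1 was detected in 2715 kept cells and Dlx2 in 1792, and 1437 cells (24.5%) had both. Most cells with both genes also carried Sox10 or Alx1. Sox10 alone left out 385 of them, Alx1 alone 288 and both together 562, so the 202 members were 14.1% of the Twist1 and Dlx2 cells. Among the members, the Twist1 count had a median of 4 UMIs and a maximum of 21, with 34 cells at 1 UMI. Dlx2 had a median of 2 and a maximum of 9, with 77 cells at 1 UMI. Only 18 members had 1 UMI of each gene, and 109 had at least 2 of each. Sox10 was at 1 UMI in 133 members (65.8%) and at 0 in 69, so the members were low in Sox10 rather than free of it.

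**Figure D1:**
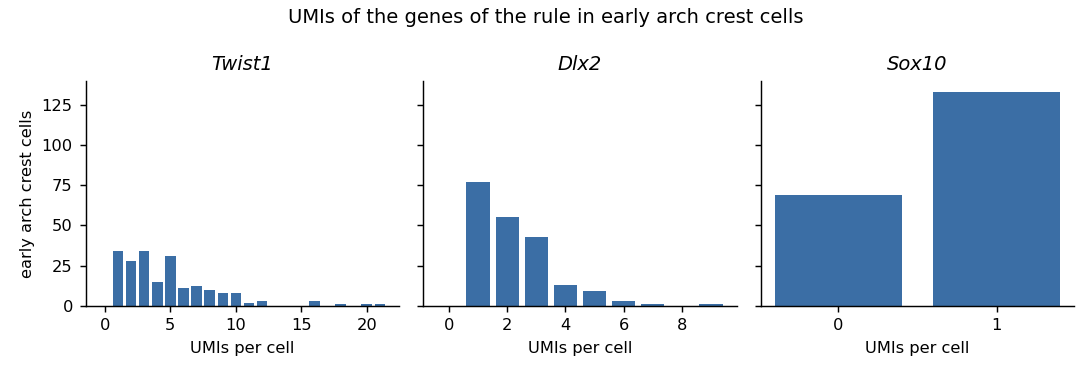
Number of early arch crest cells (y axis) at each UMI count per cell (x axis) of Twist1, Dlx2 and Sox10, 1 panel per gene. Dlx2 stands at 1 UMI in 77 of the 202 cells, Twist1 reaches 21 UMIs, and 133 cells hold 1 Sox10 UMI.

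The label was checked on the markers that the rule did not name. Prrx2 was detected in 179 of the 202 members and Snai1 in 169, with 152 cells holding both and 6 neither. To set this against free RNA in the droplets, every cell was thinned to 5000 UMIs and the members were compared with the 2377 kept cells that had neither Twist1 nor Dlx2, fewer than 2 Sox10 UMIs and no Alx1 UMI (median 18894 UMIs before thinning, against 24474 in members, with 21 of them left out as shallower). These cells carried the midbrain and neural progenitor genes Otx2, En1, Sox2 and Hes5. After thinning, Prrx2 had a UMI in 51.0% of members (95% interval 43.9 to 58.1) and in 8.19% of these cells. Snai1 had one in 40.1% of members and 1.49% of the other cells. Both markers were more frequent in members than in these cells. The absence of Twist1 and Dlx2 had chosen these cells, so this comparison cannot set the members apart from other crest. Other crest cells of the library carried them too: Prrx2 was 1.70-fold higher in members than in Sox10 crest (cells with at least 2 Sox10 UMIs) and 1.49-fold higher than in cells with Alx1, and Snai1 1.58-fold and 1.57-fold. The 112 cells that failed the rule by 1 Alx1 UMI had 121 CPM of Snai1. All 1235 cells with Twist1 and Dlx2 that Sox10 or Alx1 left out had Prrx2 at 148 CPM and Snai1 at 96.8 CPM. Members had 179 and 119 CPM. With cells thinned before the rule, Snai1 was 2.20-fold higher than in cells with Alx1, while Prrx2 was 1.58-fold higher than in Sox10 crest. With 2 UMIs of Twist1 and of Dlx2 required, Prrx2 was 2.04-fold higher than in Sox10 crest. With members limited to cells without Sox10 UMIs, Snai1 was 1.51-fold higher than in Sox10 crest and 1.49-fold higher than in cells with Alx1. The other crest cells thus carried both markers, and early arch crest is used below as a name for the cells that met the rule.

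The cells near each bound of the rule differed in degree. Just inside, the 133 members with 1 Sox10 UMI had Prrx2 at 178 CPM (UMIs of a gene, summed over the cells and scaled to a total of 1000000) and Hopx at 110.3 CPM, and just outside, the 132 Twist1 and Dlx2 cells with 2 Sox10 UMIs and no Alx1 had 156 and 62.3 CPM. The 112 cells with both genes that failed by 1 Alx1 UMI had Prrx2 at 201 CPM, Hopx at 116 and Id1 at 1099 CPM, against 1037 CPM of Id1 in the members. At the other bounds, the 34 members with 1 Twist1 UMI had Prrx2 at 94.6 CPM and Hopx at 37.1 CPM, and the 82 cells that failed by Twist1 alone had 46.9 and 19.9 CPM. The 77 members with 1 Dlx2 UMI had 142 and 90.4 CPM, and the 280 cells that failed by Dlx2 alone 74.9 and 27.7 CPM.

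Against the 5672 other kept cells, few genes were apart in the members, Hopx and Msx2 among the higher and En1 and Otx2 among the lower. A gene was measured with at least 50 CPM in either group and counted as higher or lower at a ratio of CPM of at least 2 or at most 0.5. Of 2530 genes measured, 10 were higher (0.395%) and 21 lower (0.83%), and 8 and 19 remained when the genes of the rule were taken out. The median log2 ratio of all measured genes was 0.01.

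Hopx, a small homeodomain protein that does not bind DNA itself (chr5:77086988-77115121, minus strand), had 123 CPM in members (Poisson 95% interval 113 to 133) and 46.2 in the other cells, a ratio of 2.66 (2.45 to 2.9). Snai1 stood at 119 against 46.9 CPM, a ratio of 2.55 (2.34 to 2.77), and Prrx2 at 179.5 against 75 CPM, a ratio of 2.39 (2.23 to 2.56). Msx2 (chr13:53466884-53473074, minus strand), a homeobox factor known as a target of BMP signalling, had 72.2 against 28.6 CPM, 2.53-fold higher (2.26 to 2.82). Id1, a helix-loop-helix protein without a DNA-binding region that is another known BMP target, had 1037 against 442 CPM (ratio 2.35, 2.28 to 2.41) and was detected in 200 members. These 5 genes were thus each at least 2-fold higher, with counting intervals that lay above 2.

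A few further genes were near the bound. Cdh11, a mesenchymal cadherin, had 50.3 CPM in members and 22 in the other cells, a ratio of 2.28 whose interval (2.00 to 2.60) reaches the bound. Mef2c, a MADS-box factor that acts downstream of endothelin in arch crest, had 159.8 against 77.1 CPM (2.07, 1.93 to 2.23) and was detected in 189 members. Against Sox10 crest the ratios of Cdh11 and Mef2c were 1.92 and 1.43, and against cells with Alx1 1.26 and 1.27. The 112 cells that failed the rule by 1 Alx1 UMI had Mef2c at 185 CPM, above the members. Peg3, an imprinted zinc finger gene, had 148 against 73.0 CPM (2.03, 1.88 to 2.19). With members limited to cells without Sox10 UMIs, the ratios of Mef2c and Peg3 were 1.86 and 1.90, while those of Hopx, Msx2, Id1 and Cdh11 were 3.09, 2.70, 2.44 and 2.46.

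Of the 14 listed neural tube markers, 2 were measured and 1 was lower, where 0.83% of all measured genes were. Several of the lowest ratios belonged to genes of midbrain and neural progenitors. Hes3, a transcriptional repressor found in neural progenitors, had 3.02 CPM in members and 55.8 in the other cells (ratio 0.054). En1 stood at 6.24 against 68.7 CPM and Otx2 at 5.63 against 53.4 CPM, both homeobox genes of the midbrain. Sox2, the neural progenitor factor, had 12.3 against 59.4 CPM and was detected in 44 members. Igfbp2 (0.144), Fam181b (0.172), Tspan13 (0.199), Map1b (0.297) and Car4 (0.380) followed, as did the glucose transporters Slc2a3 (18.3 against 53.7 CPM) and Slc2a1 (96.8 against 218 CPM). Taking Sox2, En1, Otx2 and Hes5 together, 64 members had at least 1 UMI of them and 8 had at least 5. The part of these RNAs that came from free RNA or joined droplets was not tested.

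**Figure D2:**
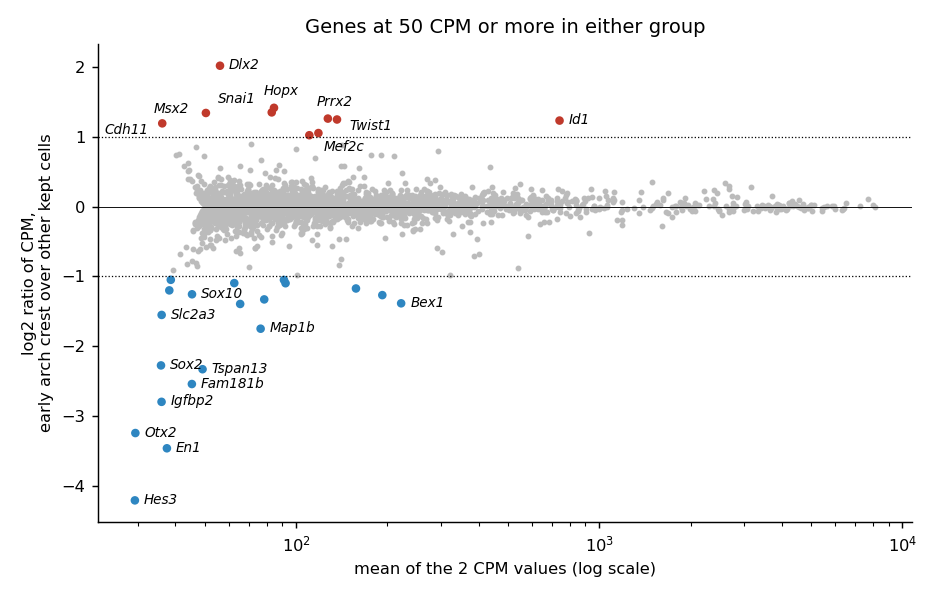
Log2 ratio of CPM, early arch crest over the other kept cells of the E8.5 library (y axis), against the mean of both CPM values (x axis, log scale) for genes at 50 CPM or more in either group, 1 point per gene. Red and blue points are at least 2-fold higher or lower (dotted lines), and Alx1, at 0 in members by the rule, is not drawn. Dlx2, which the rule required, is the highest point, the other higher points sit between 1 and 2 on the log2 scale, and Hes3, En1 and Otx2 lie below -3.

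Against the 2377 cells with neither gene, 2644 genes were measured, and 56 were higher (2.12%) and 92 lower (3.48%). Inka1, an inhibitor of the kinase Pak4, stood at 263 against 6.68 CPM (39.3-fold), Snai1 at 119 against 3.20 CPM (37.3-fold), Mef2c at 159.8 against 5.41 CPM (29.5-fold) and Ets1, a crest specifier, at 50.5 against 3.18 CPM (15.9-fold). Tfap2a, another specifier, was 10.7-fold higher. Lower genes included Fgf8 of the isthmus (1.01 against 52.8 CPM), Trh (1.01 against 53.4 CPM) and En1 (6.24 against 170.0 CPM). This group of cells was chosen for comparison after the data had been seen.

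The nearest cells gave far fewer differences. Sox10 crest, defined as the 951 kept cells with at least 2 Sox10 UMIs and no Alx1, had 2502 genes measured with the members, of which 3 were higher in members (0.12%) and 7 lower (0.28%). Outside the genes of the rule, Hopx alone was higher, at 123 against 29.7 CPM (4.14-fold, 3.71 to 4.61). Id1 was 1.89-fold and Cdh11 1.92-fold, both under the bound. The 6 lower genes were Gadd45a (31.6 against 81.4 CPM), Crabp2 (216 against 482 CPM), Tubb2b (44.7 against 98.1 CPM), Gsta4 (59.4 against 128.5 CPM), Sox9 (50.3 against 106 CPM) and Pax3 (25.6 against 52.4 CPM). When cells were thinned to 5000 UMIs before the rule, Tubb2b (ratio 0.561) and Pax3 (0.512) were no longer called, and Pax3 was at 0.581 in members without Sox10 UMIs. Thinning before the rule also chose the members anew. Then 279 kept cells had Twist1 and Dlx2, against 1437, and the bounds on Sox10 and Alx1 kept 70.3% of them, against 14.1%. The ratio of Sox10 to all other kept cells was then 0.917, against 0.419, so this setting changed the cells as well as the depth. Sox9 and Pax3 are crest specifiers and Crabp2 binds retinoic acid in the cytoplasm. Foxd3, the early crest factor, was too low to be counted, at 3.42 CPM in members and 19.9 in Sox10 crest.

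For other crest genes the ratio to Sox10 crest was within 2-fold. Tfap2a had 60.4 CPM in members against 55.5, Ets1 50.5 against 65.5 and Tfap2b 112.5 against 151. Erbb3, the neuregulin receptor, had 11.7 against 15.1 CPM. Of 13 listed genes of the glial and Sox10 programme, 4 reached 50 CPM in either group and 0 of these were at least 2-fold apart. Of all measured genes, only 0.12% were higher and 0.28% lower, so a list of this size would seldom hold a call.

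Alx1 cells, the 731 kept cells with at least 1 Alx1 UMI and fewer than 2 of Sox10, were compared in the same way. Of 2493 genes, 2 were higher in members (0.0802%) and 2 lower (0.0802%), 1 of each being a gene of the rule. Msx2 was higher, at 72.2 against 30.4 CPM (2.38-fold, 2.08 to 2.72), and Ldhb, a subunit of lactate dehydrogenase, was lower at 23.1 against 51.2 CPM (ratio 0.452, and 0.596 after thinning before the rule). Msx2 was not particular to the members. The 112 cells that failed by 1 Alx1 UMI had it at 59.9 CPM (51.3 to 69.6), and the 132 with 2 Sox10 UMIs at 54.5 CPM. Cells that failed by Dlx2 alone had 60.7 CPM and those that failed by Twist1 alone 58.5 CPM. All 1235 cells with both genes that Sox10 or Alx1 left out had 37.8 CPM. Hopx hardly differed, at 123 against 113 CPM (1.09-fold). Among Id genes, Id1 was 1.74-fold higher in members, with 1037 against 594 CPM, and Id2 had 519 against 298 CPM. Prrx1, the partner of Prrx2, had 23.3 CPM in members and 35.1 in Alx1 cells (ratio 0.664), and the direction turned to a ratio of 1.18 with thinning before the rule. With thinning before the rule, 7 genes were higher than in Sox10 crest and 8 than in Alx1 cells, 3 being lower than in Alx1 cells.

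The 280 cells that failed the rule by Dlx2 alone (Twist1 present, Dlx2 absent, Sox10 under 2 and Alx1 at 0) were a mixed group. Of 2565 genes, 14 were higher in members (0.546%) and 35 lower (1.36%). Hopx (4.44-fold), Snai1 (3.31-fold), Mef2c (2.98-fold), Inka1 (2.69-fold), Eva1b (2.50-fold), Lmo4 (2.42-fold), Prrx2 (2.40-fold) and the calponin Cnn2 (2.37-fold) led the higher genes. En1 (0.083), Hes5 (0.087), Otx2 (0.097), Igfbp2 (0.108), Arl4a (0.169), Tspan13 (0.172), Sox2 (0.183) and Fam181b (0.187) led the lower ones, and of 14 listed neural tube markers 3 were measured and 2 lower. When all cells were thinned to 5000 UMIs before the rule was applied, 1 gene was higher and 1 lower in place of 14 and 35. The higher gene was Dlx2, which the rule itself fixed, and the lower was Gsta4 (ratio 0.437). The ratio of Hopx was then 1.44, that of Snai1 1.58 and that of Prrx2 1.29. None of the 8 lower genes just named reached the level needed to be measured after thinning, so none could be called. En1 then had a ratio of 0.064, Otx2 and Arl4a each 0.266, Igfbp2 0.279 and Sox2 0.532. Tspan13 stood at 0.590, Hes5 at 0.894 and Fam181b at 1.19.

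**Figure D3:**
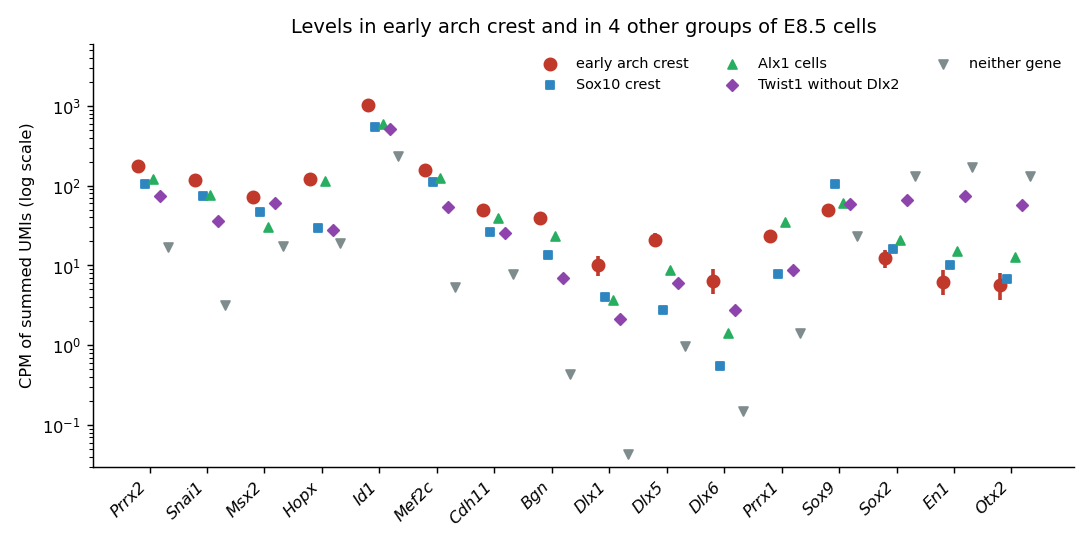
CPM of summed UMIs (y axis, log scale) of named genes in the 202 early arch crest cells (red, with 95% Poisson bars) and in 4 other groups of cells of the E8.5 library. Hopx lies high in members and Alx1 cells, Msx2 lies lowest in Alx1 cells and cells with neither gene, and Sox2, En1 and Otx2 are highest in cells with neither gene.

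Other Dlx genes were under the 50 CPM bound in members and in the other cells. Dlx5 had 21.1 CPM (17.3 to 25.6) in members and 3.11 in the other cells, a ratio of 6.78 (5.43 to 8.42), from 34 of the 202 cells. Dlx6 had 6.44 against 0.681 CPM (9.46, 6.12 to 14.3) from 21 cells, and Dlx1 10.1 against 2.32 CPM (4.34, 3.16 to 5.87) from 40 cells. Against Sox10 crest the ratios of Dlx5, Dlx6 and Dlx1 were 7.60, 11.6 and 2.48, and against Alx1 cells 2.39, 4.49 and 2.74. The 112 cells that failed the rule by 1 Alx1 UMI had Dlx5 at 18.6 CPM (13.9 to 24.3), near the level of members, and Dlx6 at 3.15 CPM. Dlx3 and Dlx4 were at 1.01 and 0.201 CPM, from 5 cells and 1 cell. The levels of Dlx3 and Dlx4 rest on 5 UMIs and 1 UMI.

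Other ectomesenchyme factors stood in between. Of 27 listed factors other than the markers, 21 had a UMI in members and 4 reached the level needed to be measured, of which 1, Msx2, was at least 2-fold higher, where 0.395% of all measured genes were (median log2 ratio 0.38, against 0.01 for all genes). Tbx3, a T-box repressor, had 14.5 CPM in members and 5.73 in the other cells (2.53, 1.96 to 3.22), Foxc1, a forkhead factor, 15.1 against 7.06 CPM (2.14, 1.67 to 2.70) and Prrx1 23.3 against 11.5 CPM (2.03, 1.66 to 2.45). Msx1, the paralogue of Msx2, was not higher, with 22.1 against 30.3 CPM (0.73, 0.60 to 0.88). Late or regional factors were at the limit of detection: Hand2, Gsc, Nkx3-2, Pitx1 and Runx2 had 0 UMIs in the 202 members (limit 0.604 CPM for 3 counts), and Barx1 was at 0.201 CPM.

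Of 20 listed neural crest specifiers, all had a UMI in members and 10 were measured, with 1 higher (Id1, where 0.395% of all measured genes were), 0 lower and a median log2 ratio of 0.50 against 0.01 for all genes. Lmo4 had 373 against 214 CPM (1.74-fold), Tfap2a 60.4 against 33.5 (1.80-fold) and Mycn 191.5 against 131 (1.47-fold). Sox9 was slightly lower at 50.3 against 60.1 CPM.

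For the pathways, few genes reached a ratio of 2. In the endothelin list, 1 of 8 genes was measured and higher (Mef2c), where 0.395% of all measured genes were, and its ratio was 1.86 with members limited to cells without Sox10 UMIs. Mef2c was only 1.43-fold higher than in Sox10 crest and 1.27-fold higher than in Alx1 cells. The receptor Ednra had 11.1 CPM in members from 43 cells and 7.93 in the other cells, while its ligand Edn1 was at 0.201 CPM. Among 24 genes of BMP and TGF-beta signalling 1 was measured and none called, and the feedback genes Bambi and Smad6 had 35.4 against 19 CPM and 3.82 against 1.37 CPM. Of 18 FGF and MAPK genes 2 were measured and none called. The feedback phosphatase Dusp6 was higher by less than the bound, at 61.8 against 37.5 CPM (1.65, 1.46 to 1.85), Spry4 had 6.84 against 2.63 CPM, and the receptor Fgfr1 had 21.5 against 35.2 CPM.

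Pdgfra, the growth factor receptor of crest mesenchyme, had 14.3 CPM in members and 7.42 in the other cells (1.93, 1.49 to 2.45), while the ligand gene Pdgfa had 3.02 against 9.03 CPM. Against all other kept cells, Wnt (2 of 26 measured), Hedgehog (0 of 11), Notch (1 of 15) and retinoic acid (3 of 15) genes gave 0 calls. Of all measured genes, 0.395% were higher and 0.83% lower, so lists with so few measured genes would seldom hold a call. The Wnt target Axin2 had 10.1 against 21.1 CPM, the Hedgehog receptor and target Ptch1 8.65 against 15 CPM, and Gli1 0 UMIs against 1.27 CPM. Matrix genes were sparse, with 1 of 25 measured and none called. Under the level needed to be counted, biglycan (Bgn), a small proteoglycan, had 39.0 against 10.8 CPM (3.60, 3.09 to 4.19) from 104 members. It was 2.86-fold higher than in Sox10 crest and 1.65-fold higher than in Alx1 cells. Postn had larger ratios, at 5.24 to the other cells, 3.38 to Sox10 crest and 2.75 to Alx1 cells, while Col1a1 had 0 UMIs.

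Against all other kept cells, no gene of the cell cycle lists was called. The 12 S phase genes had a median log2 ratio of 0.14, with 10 of 12 above a ratio of 1. The 12 measured G2/M genes had a median of -0.33 with 0 of 12 above a ratio of 1, and against Sox10 crest 0 of 13 were above 1 as well. Ube2c had 292 against 479 CPM and Cenpf 99.2 against 177 CPM. Of 12 measured glycolysis genes 2 were lower, both glucose transporters, where 0.83% of all measured genes were, and Ldha had 4687 against 4403 CPM. Ribosome biogenesis (11 measured), cytoskeleton (15 measured) and RNA-binding developmental regulators such as Lin28a (6 measured) had no calls.

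Markers of heart and blood were near 0 in the members. Heart markers summed to 2.21 CPM, against 11.7 CPM in the other kept cells, with 6 of 9 genes at 0, Tnnt2 among them, and blood markers to 0.402 against 1.40 CPM with 7 of 8 at 0. Epithelium markers summed to 10.1 against 34.2 CPM with 7 of 13 at 0, and mesoderm markers to 5.23 against 13.5 CPM. Endothelium markers summed to 13.1 against 11.6 CPM with 5 of 10 at 0, of which Etv2 made 11.5 CPM and Cdh5 none. Neural tube markers summed to 104 CPM against 307 CPM in the other cells, Fabp7, which crest cells also express, making 63.6 CPM of it. Neuron markers summed to 79.5 CPM against 121 CPM, mainly Tubb3 at 57.9 CPM.

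The members were also divided by their Twist1 UMIs, a gene the rule used, so the values by class are a description. From the 34 cells with 1 Twist1 UMI over the 77 with 2 to 4 to the 91 with 5 or more, Hopx stood at 37.1, 77.6 and 185 CPM. Prrx2 followed the same order with 94.6, 142 and 235 CPM, and Prrx1 with 5.12, 12.8 and 37.1 CPM. Sox9 ran the opposite way at 88.2, 58.6 and 31.7 CPM, as did Crabp1 at 1747, 1401 and 618 CPM. The midbrain gene Otx2 had 16.6, 2.79 and 4.17 CPM, and En1 14.1, 0.558 and 7.93 CPM. Wnt1, a signal of the dorsal neural tube, had 17.9, 2.79 and 3.34 CPM. Sox2 (12.8, 5.02 and 17.5 CPM) and Hes5 (1.28, 2.23 and 7.93 CPM) were instead highest in the top class. The part of neural tube RNA in the other orders was not tested. Tfap2a stayed between 55.8 and 65.1 CPM in these classes. The median depth of the classes was 23658, 23641 and 25478 UMIs.

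The same division was made by Dlx2, the other gene the rule required. In the 77 cells with 1 Dlx2 UMI, the 55 with 2 and the 70 with 3 or more, Msx2 had 37.4, 69.1 and 109.6 CPM, and Dlx5 6.69, 15.1 and 40.3 CPM. Hopx had 90.4, 118 and 159 CPM. Snai1 had 106, 128 and 126 CPM, with no order between the upper classes. Otx2 had 10.0, 6.48 and 0.559 CPM and Wnt1 8.92, 6.48 and 1.12 CPM. En1 (7.25, 9.36 and 2.80 CPM), Sox2 (13.9, 19.4 and 5.03 CPM) and Hes5 (10.0, 0.720 and 2.80 CPM) did not fall in that order. These cells share 1 library, and depth rose with the class from a median of 23363 to 25017 UMIs.

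A small share of the members carried Hox RNA. Of the 202, 25 (12.4%, 8.17 to 17.7) had a UMI of Hoxa2, Hoxb2, Hoxa3, Hoxb3 or Hoxd3, with Hoxa2 in 17 cells, Hoxb2 in 20 and both in 14. After thinning to 5000 UMIs the share was 5.94% (3.11 to 10.1), against 19.6% in Sox10 crest, 6.02% in Alx1 cells, 20.8% in Twist1 cells without Dlx2 and 4.75% in cells with neither gene. The thinned share was thus not above that of the cells with neither gene by more than counting error. Whether the Hox UMIs of either group were RNA of the cells themselves was not tested, so the share in cells with neither gene is no background level. Among the 109 members with at least 2 UMIs of Twist1 and of Dlx2 the thinned share was 1.83%.

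Cells with and without Hox UMIs were also compared in all other genes. Of 2606 genes measured, 24 were higher with Hox UMIs (0.921%) and 7 lower (0.269%), the Hox genes that made the split being among the 24. With 2 UMIs of Twist1 and of Dlx2 required the counts were 81 and 52, and without Scrublet doublets 23 and 11. The stricter rule left fewer cells with Hox UMIs (after thinning 2 of 109, against 12 of 202). Its counts are given without the number of genes measured, so they do not show a larger difference. Hoxb1, which the split did not use, had 46.9 CPM in the 25 cells (13 with a UMI) and 0 UMIs in the 177. Meis1, a cofactor of Hox proteins, had 48.6 CPM from 15 of 25 cells and 0.915 CPM from 4 of 177. Hoxb3os, an antisense transcript that overlaps Hoxb2, had 88.7 against 0.686 CPM, and since the strand handling of the counts is not stated in the sources used here its reads cannot be told from those of Hoxb2.

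Retinoid binding proteins were among the higher genes. Crabp1 stood at 4599 CPM (4429 to 4774) in the 25 cells and 597 CPM (575 to 621) in the 177, 7.70-fold (7.30 to 8.13), and was detected in all 25 and in 173 of the 177. Crabp2 had 953 against 115.5 CPM (8.25-fold, 7.31 to 9.32). Gsta4, a glutathione transferase, had 256 against 32.5 CPM (7.89-fold) from 23 of 25 and 86 of 177 cells. Arid3b (73.7 against 8.92 CPM) and Pmp22 (51.9 against 8.23 CPM) were also higher. For Gsta4 and Arid3b the difference did not rest on 1 cell, since the largest count of Gsta4 in a single cell was 18 and that of Arid3b 5.

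Several single genes were higher in the cells with Hox UMIs: the receptor Ngfr had 63.6 against 20.8 CPM (3.06-fold) and the Wnt antagonist Sfrp2 102 against 24 CPM. Under the level needed to be counted, the endothelin receptor Ednra had 26.8 against 8.92 CPM (3-fold), the receptor Ednrb 21.8 against 4.57 CPM (4.76-fold) and the guidance receptor Nrp1 26.8 against 2.06 CPM. The neuronal tubulin Tubb3 had 159 against 44.1 CPM, and the neuron markers together 214 against 61.1 CPM. The part of neuronal RNA in the other differences was not tested. As whole lists, the glial and Sox10 programme summed to 445 against 456 CPM, the cadherins and migration genes to 343 against 313 CPM, the neural crest specifiers had a ratio of sums of 0.811 and the endothelin pathway 0.916. Msx1 had 70.3 against 15.6 CPM (4.52-fold), from 10 of 25 and 30 of 177 cells.

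The 7 lower genes included Msx2 and Fabp7, while the listed ectomesenchyme transcription factors summed to 470.5 against 357 CPM (ratio 1.32). Fabp7 had 15.1 against 70.2 CPM, Msx2 31.8 against 77.8 CPM (0.41, 0.24 to 0.65) and Mt1, a metallothionein, 41.9 against 99.0 CPM. Loxl2, Srrt, Rnf4 and Vps35 were the remaining lower genes, at ratios of 0.395 to 0.473. Under the level needed to be counted, Prrx1 had 3.35 against 26.1 CPM (0.13, 0.02 to 0.47), from 2 of 25 and 68 of 177 cells, and Bgn 15.1 against 42.3 CPM. Id1 (601 against 1096 CPM), Snai1 (68.6 against 126 CPM), Hopx (72.0 against 129.9 CPM) and Lmo4 (218 against 394 CPM) had ratios of 0.54 to 0.55. Tfap2a (62.0 against 60.1 CPM), Tfap2b (112.2 against 112.5 CPM) and Sox10 (30.1 against 26.3 CPM) were about the same. Both classes had like depth, with medians of 24210 and 24649 UMIs.

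There were 42 cells with a UMI of Dlx5 or Dlx6 (20.8%, 15.4 to 27), 13 with both genes. The cells with Dlx5 or Dlx6 and those with Hox UMIs shared 2 cells, 2 of 42 and 2 of 25. Of 2523 genes measured, 9 were higher in the 42 cells (0.357%) and 2 lower (0.0793%), and Dlx5, which made the split, is 1 of the 9. Msx2 had 177 CPM in these cells and 41.6 in the other 160 (4.25-fold, 3.44 to 5.27), from 38 of 42 and 68 of 160 cells. Bambi, a decoy receptor of BMP signals, had 61.4 against 27.8 CPM (2.21-fold), Bgn 66.7 against 31.0 CPM (2.16-fold) and Gng11 51.6 against 24.4 CPM (2.11-fold). Hopx, with 204 against 99.3 CPM (2.05-fold, 1.73 to 2.42), was also called.

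A few more genes were called in these 42 cells through few cells: Gm26737, an antisense transcript, had 67 UMIs in 5 of the 42 cells with at most 34 in a single cell, Dqx1 84 UMIs in 10 cells with at most 32, and Loxl2 106 UMIs in 15 cells with at most 37. The genes called by this split were named after their values had been seen. Under the level or fold needed for a call, Prrx1 had 48.0 against 16.1 CPM (2.98, 2.03 to 4.36) and Msx1 46.2 against 15.1 CPM, and Prrx2 stood at 284 against 149 CPM (1.90-fold). The lower genes were Crabp1 (564 against 1229 CPM) and Crabp2 (108 against 248 CPM), and Sfrp2 had 13.3 against 39.3 CPM, Ngfr 13.3 against 29.6 CPM and Ednrb 0.889 against 8.32 CPM.

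**Figure D4:**
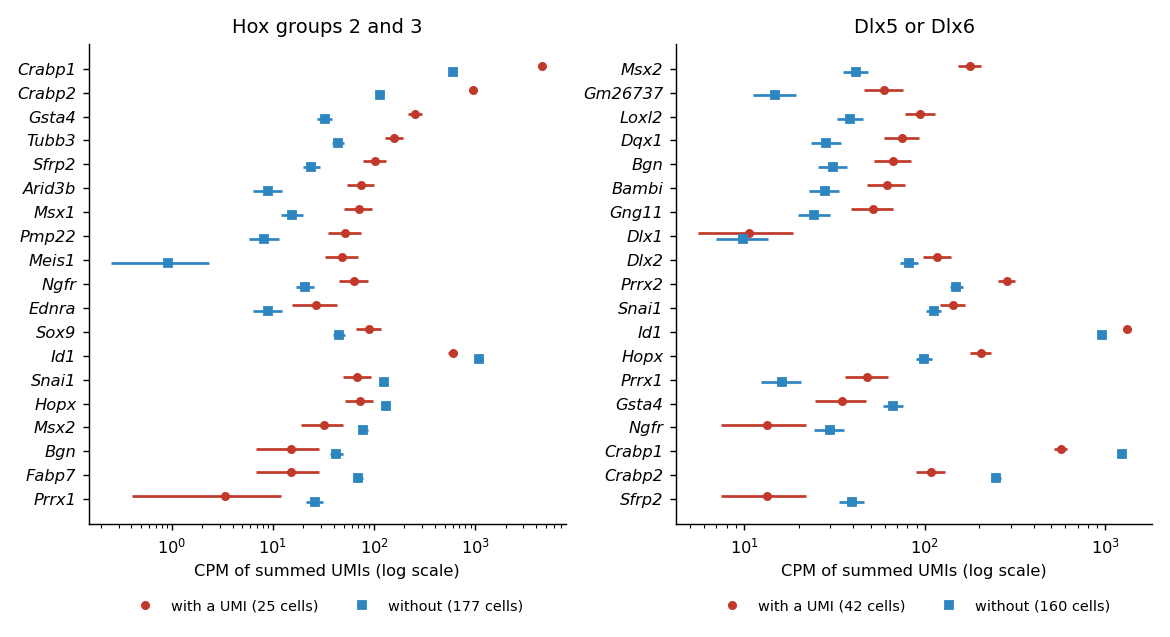
CPM of summed UMIs (x axis, log scale) of named genes in early arch crest cells with a UMI (red circles) and without (blue squares) of Hox groups 2 and 3 (left) and of Dlx5 or Dlx6 (right), with 95% Poisson intervals as bars. Crabp1 and Crabp2 lie higher in the 25 cells with Hox UMIs and lower in the 42 cells with Dlx5 or Dlx6, and Msx2 and Bgn lie the opposite way.

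The split by the remaining Sox10 UMI gave few differences. Of 2489 genes, 1 was higher in the 133 members with 1 Sox10 UMI (0.0402%) and 1 lower (0.0402%) than in the 69 without. The higher gene, Klhl24, had 54.5 against 19.4 CPM, and the lower, Xaf1, 5.51 against 66.9 CPM with 114 UMIs in 8 of the 69 cells. Prrx2, Snai1, Id1 and Mef2c were not called. Sox9 had 57.6 against 36.4 CPM (1.58, 1.18 to 2.15) and Dlx5 17.5 against 28.2 CPM (0.62, 0.42 to 0.93). Under the level needed to be counted, Otx2 had 3.06 against 10.6 CPM, En1 3.68 against 11.1, Wnt1 3.98 against 8.21 and Hes5 3.37 against 7.62. Sox2 was about the same, at 12.9 against 11.1 CPM.

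The same rule was counted in the other control libraries. Their stage, dissected region, kit (version 3.1) and sequencing instrument and provider all differ from those of E8.5 and cannot be told apart. The E9.5 library had 34.3% of kept cells that met it (2951 cells), and the E10.5 replicates 24.9% and 32.7% (1828 and 3359 cells), against 3.44% in the E8.5 library. The Tbx1 null libraries, the first and second of which were made with kit version 3 and the last with 3.1, had 39.1% (E9.5) and 15.6% and 6.73% (E10.5 replicates), and after thinning 21.9%, 10.1% and 2.76%. After thinning to 5000 UMIs the control libraries had shares of 3.35%, 18.7%, 9.18% and 12.1% in the same order of stages, E8.5 first. Part of the low share at E8.5 lay in the Sox10 and Alx1 bounds: in the same order, the rule kept 14.1%, 65.6%, 87.4% and 87.5% of the cells with Twist1 and Dlx2, and 70.3%, 92.7%, 95.3% and 96.1% after thinning.

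Levels in the cells that met the rule are given next for the same 4 libraries. Those of Dlx2 and Twist1 are set in part by the rule, which required both. Dlx2 had 89.9 CPM in the E8.5 library, 104 in the E9.5 library, and 102 and 97.1 in the E10.5 replicates, while Twist1 stood at 192, 722, 422 and 382 CPM. Snai1 was highest at E8.5 with 119 CPM, against 57.9, 29.3 and 23.5 CPM in the later libraries. Mef2c had 159.8, 62.5, 14.9 and 18.4 CPM in the same order, and Id1 1037, 667, 304 and 247 CPM. Hopx had 123 and 121 CPM in the E8.5 and E9.5 cells, and 10.1 and 9.0 CPM in the E10.5 replicates.

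Other named genes were lower in the E8.5 library than in the later ones. Prrx1 stood at 23.3, 185, 316.5 and 382 CPM, Dlx5 at 21.1, 83.1, 102 and 83.4 CPM and Hoxa2 at 7.04, 21.0, 88.1 and 86.6 CPM. Hand2, a factor of the ventral arch, had 0 UMIs at E8.5, then 35.9, 77.4 and 77.9 CPM, and Barx1, a homeobox gene of arch mesenchyme, had 0.201, 222, 276 and 208.5 CPM. Gsc had 0 UMIs, then 1.03, 65.8 and 60.5 CPM, and Col3a1, a fibrillar collagen, 1.41, 48.1, 198.5 and 175 CPM. With a single library for each of the earlier stages, the differences between stages were not tested.

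**Figure D5:**
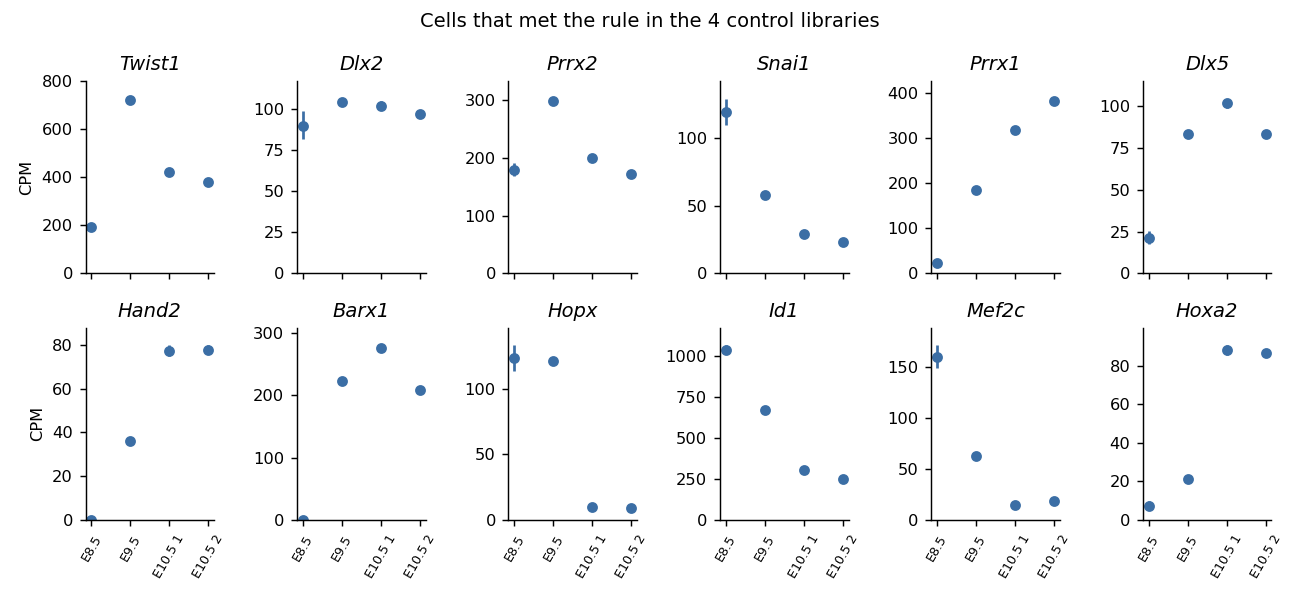
CPM of summed UMIs (y axes, linear, 1 scale per gene) of named genes in the cells that met the rule in the 4 control libraries (x axis: E8.5, E9.5 and the replicates at E10.5), with 95% Poisson intervals as bars. Snai1, Id1 and Mef2c are highest at E8.5, Prrx1, Hand2 and Hoxa2 are highest at E10.5, and Twist1 and Prrx2 are highest at E9.5.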

How the data were processed

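Single-cell RNA sequencing of sorted Wnt1-Cre;ROSA-EGFP cells was analysed for the 7 libraries, with the results taken from the control library at E8.5. The authors deposited raw UMI counts per gene and cell for 32285 gene identifiers, made with Cell Ranger 6.0.1 on mm10 per the submitters' processing notes, and no further filter is stated. Barcodes per library numbered 5987 to 12047.

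Barcodes with 1000 or more genes detected and no more than 10% of UMIs from mitochondrial genes were retained, and doublets were kept in the main values. The members and the 33 gene lists were chosen with earlier results of these data known. UMIs were summed over the cells of a group and scaled to CPM, with exact Poisson 95% intervals, exact conditional intervals of ratios and Clopper-Pearson intervals of shares. A gene was called at 50 CPM in either group and a ratio of at least 2 or at most 0.5. No test was run, since E8.5 has 1 library. Depth was equalised by thinning each cell to 5000 UMIs, which leaves the share of free RNA in a cell unchanged. Where thinning came before the rule, all groups of cells were chosen anew from the thinned counts. A level at 0 is given with the value that 3 counts would have. The calls were run on simulated data with known changes, but no outcome of that check is given here, so it lends the calls no weight. Genes were named if listed, or if among the 15 highest and 10 lowest called genes (8 and 8 in the nearer comparisons and the Hox split), genes of the rule left out. Alternatives were other cell filters, Scrublet in scanpy 1.11.5, stricter rules, TMM factors (edgeR 4.0.16), means over cells, other level minimums and thinning. Gene positions come from GENCODE annotation of GRCm38 and promoters from RefSeq, while Python 3.11.15 ran the scripts.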

Additional observations from a re-analysis of the deposited data

How the results depend on the processing

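The early arch crest was 3.44% of kept cells, 1.86% with at least 2 UMIs of Twist1 and of Dlx2 and 1.18% with Sox10 at 0. Of the values under another setting, 44 were counted as moved and 58 were not, and the cause was not tested beyond what a setting itself fixes. The 58 were not all close to the main value: the Hoxa2 share was 5.53% with thinning to 10000 UMIs, against 2.48%. Genes higher and lower than in all other kept cells numbered 23 and 66 with a 20 CPM minimum and 875 and 4731 with only 3 UMIs needed, where counts are small, and 36 were lower after thinning to 5000 UMIs before the rule. Against Sox10 crest they were 9 and 14 with 2 UMIs of each gene, 12 and 12 at 20 CPM and 739 and 1716 with 3 UMIs, and 7 were higher after thinning. Against Alx1 cells they were 4 and 8 at 20 CPM and 513 and 1416 with 3 UMIs, with 5 higher under 2 UMIs of each gene and 8 after thinning. Against Twist1 cells without Dlx2 they were 37 and 108 at 20 CPM, 642 and 2286 with 3 UMIs and 1 and 1 after thinning (Dlx2, fixed by the rule, and Gsta4), and 22 were higher both with 2 UMIs of each gene and with TMM factors. Removing Scrublet doublets made 10 listed genes lower in place of 6. Without thinning, Hoxa2 had a UMI in 8.42% of members, Hoxb2 in 9.90% and any Hox gene of groups 2 and 3 in 12.4%, and at 10000 UMIs Hoxb2 had 8.04% and the group 10.6%. With 2 UMIs of Twist1 and of Dlx2 the group had 1.83%, and the Hox split, with fewer Hox cells, then called 81 higher and 52 lower genes. Without doublets, an alternative added after seeing the data, that split called 11 lower genes. Shares by the rule after thinning were 18.7% (E9.5), 9.18% and 12.1% (E10.5 replicates) in controls, and 21.9%, 10.1% and 2.76% in the Tbx1 null libraries. No paired analysis was possible because no test was run, with 1 library at E8.5.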
